A study of Mus musculus with 18 samples.

Results

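Astrocyte identity transcription factors were followed in hippocampal RNA of mice made epileptic by kainic acid, which models epilepsy of the temporal lobe. The set was given by name and held 8 genes (Sox9, Sox2, Nfia, Nfib, Nfix, Zbtb20, Lhx2 and Rorb) of the 55291 gene symbols in the deposited tables, and all 8 were found in each of the 18 libraries. All mice were wild type and received, at 6 weeks of age, an AAV that expresses EGFP-Rpl10a, a GFP-tagged ribosomal protein, from the astrocyte promoter GfaABC1D in the right hippocampus. In the kainic acid (KA) group, the glutamate receptor agonist KA was given to the same hippocampus when 2 weeks had passed since the AAV, and tissue was taken 14 days after KA. The AAV control group had the AAV only and was collected 2 weeks after it, with no second injection. The PBS group had PBS injected after the AAV, at a time not given in the sources used here. Each group had 3 samples of 3 to 4 pooled hippocampi. Each sample gave an input library of all hippocampal RNA and an IP library, the RNA bound to ribosomes that the anti-GFP antibody pulled down. The promoter of the tag derives from GFAP, and Gfap itself was higher in KA IP, as described with the target genes.

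In the developing forebrain, SOX9 and the nuclear factor I (NFI) proteins turn neural progenitors from making neurons to making astrocytes, and NFI proteins bind astrocyte genes such as Gfap directly. The same factors stay on in adult astrocytes, where they maintain the expression of mature astrocyte genes. Several of them are shared with other cells: SOX2 marks neural stem cells and glial precursors, and NFI proteins and ZBTB20 are also made by hippocampal neurons.

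Library totals ranged from 7991681 to 16032180 counts, and every member had at least 358 counts in each IP library and 210 in each input library. Sequencing run 1 held KA and AAV control samples #1 and #2, run 2 held #3 of both groups, and run 3 held all PBS libraries, so in comparisons with PBS the run and the group cannot be told apart. In IP, 7 of the 8 members were lower in sample #3 than in samples #1 and #2 in both the KA and the AAV control group. The level in #3 was 0.347 times the mean of #1 and #2 for Sox9 in AAV control IP, and 0.373 times in KA IP. Nfix was the exception, at 1.08 times in AAV control IP and 0.957 times in KA IP. The 3 groups are therefore given sample by sample below, and results that rest on samples #3 are given with and without them. Markers of astrocytes (10 genes) were above 1 FPKM (fragments per kilobase and sequencing depth) in all libraries, and all 10 were higher in IP than in input in all 3 groups by edgeR.

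The members lie on 7 chromosomes (GRCm38, GENCODE M21). Sox9 (ENSMUSG00000000567.5, chr11:112782224-112787760, plus strand) and Sox2 (ENSMUSG00000074637.7, chr3:34650405-34652461, plus strand) are compact, with 3 exons and 1 exon. Sox2 lies within an intron of the noncoding gene Sox2ot on the same strand, with 0 shared exonic bases. Lhx2 (ENSMUSG00000000247.11) spans chr2:38339281-38369733 on the plus strand, and Rorb (ENSMUSG00000036192.15) spans chr19:18930605-19111196 on the minus strand. Nfia (ENSMUSG00000028565.18, chr4:97772734-98118874, plus) and Nfib (ENSMUSG00000008575.17, chr4:82290173-82705750, minus) share chromosome 4, and Nfix (ENSMUSG00000001911.16, chr8:84699876-84800344, minus) lies on chromosome 8. Zbtb20 (ENSMUSG00000022708.16, chr16:42875881-43642602, plus) is the longest, with 766722 bases. Nfix shares 137 exonic bases with G430095P16Rik on the opposite strand, a gene with 2 to 13 counts per library. The library kit does not mark strand, so reads of a member and of an antisense partner cannot be told apart.

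The sequence before the start is shown for the 3 members that fell in KA IP against PBS (Lhx2, Sox2 and Rorb) and for Nfix, which rose. RefSeq promoter windows (GRCm38.p6) were found for 6 of the 8 members, and where a gene has several starts the one listed first is shown. Each window runs from 250 to 21 bases before the start, 5′ to 3′ on the gene's strand, and overlaps no GENCODE exon. Windows are chr2:38339031-38339260 (plus) for Lhx2, chr3:34649745-34649974 (plus) for Sox2, chr19:19111217-19111446 (minus) for Rorb and chr8:84780103-84780332 (minus) for Nfix. The Nfix window lies within the GENCODE span of its gene, as do the windows of its other listed starts. Those shown for Lhx2, Sox2 and Rorb lie before the gene, so Nfix is not compared at a like position. Capitals mark the NFI half-site TTGGC and the ROR half-site AGGTCA on either strand (on the opposite strand they read GCCAA and TGACCT), and the SOX core ACAAT was also searched.
Lhx2: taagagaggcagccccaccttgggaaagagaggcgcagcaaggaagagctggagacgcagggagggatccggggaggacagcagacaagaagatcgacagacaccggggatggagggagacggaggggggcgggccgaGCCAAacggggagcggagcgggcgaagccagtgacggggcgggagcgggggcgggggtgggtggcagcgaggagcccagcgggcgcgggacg
Sox2: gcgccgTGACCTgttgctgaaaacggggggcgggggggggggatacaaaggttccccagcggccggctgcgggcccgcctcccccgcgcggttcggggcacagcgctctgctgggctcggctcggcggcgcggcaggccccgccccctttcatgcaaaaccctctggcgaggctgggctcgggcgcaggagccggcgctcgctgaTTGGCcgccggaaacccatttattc
Rorb: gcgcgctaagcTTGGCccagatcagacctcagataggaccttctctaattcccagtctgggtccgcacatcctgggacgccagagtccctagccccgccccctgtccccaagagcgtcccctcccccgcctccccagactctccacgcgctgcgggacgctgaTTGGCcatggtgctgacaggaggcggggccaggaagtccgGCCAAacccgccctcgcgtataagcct
Nfix: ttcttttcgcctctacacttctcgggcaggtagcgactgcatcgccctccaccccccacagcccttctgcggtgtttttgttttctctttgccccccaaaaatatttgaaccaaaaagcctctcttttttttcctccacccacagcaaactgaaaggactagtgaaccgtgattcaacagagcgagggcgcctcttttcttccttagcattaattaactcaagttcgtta
The windows of Lhx2, Sox2 and Rorb had 70.9%, 73.0% and 66.1% G or C, against a median of 51.7% over the 32851 windows of the table, and Nfix had 47.4%. They held 21, 27 and 16 CG dinucleotides, and Nfix held 9, against a median of 5. TTGGC was found 1 time for Lhx2, 1 time for Sox2, 3 times for Rorb and 0 times for Nfix in these windows, and 39.2% of all windows hold it. AGGTCA was found 1 time, for Sox2, and 13.0% of windows hold it. ACAAT was found in none of the 4, and 26.4% of windows hold it. Of the 3 other listed starts of Nfix, 1 has a window with 1 match to each of the 3 motifs and 1 has a window with 1 match to AGGTCA, while the other windows of Lhx2 and Rorb hold 0 matches to TTGGC, so these counts hold for the windows shown and not for the genes. No marked sites overlap. The matches describe the letters of these windows, and binding was not measured.

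In control astrocyte RNA, SOX factors stood at the top of the set by FPKM. In AAV control IP, Sox2 had a mean of 115 FPKM ± 53.6 (SD, n = 3) and Sox9 67.4 ± 32.5, followed by Lhx2 at 37.0 ± 13.96, Zbtb20 at 30.9 ± 10.3 and Nfix at 27.8 ± 1.67. Nfib (18.7 ± 8.33), Nfia (16.1 ± 7.27) and Rorb (10.1 ± 4.56) were lowest. Of the neighbours in this order, only Nfix and Nfib did not overlap between samples. In PBS IP, Sox2 again led with 83.7 ± 9.51 and Rorb was last with 7.67 ± 1.46. In KA IP the order was different: Nfix was first with 47.3 ± 1.67, Sox9 (46.3 ± 21.3) and Sox2 (45.5 ± 14.2) overlapped with it, and Lhx2 had dropped to 10.5 ± 2.66. Levels are counts per length of all annotated exons of a gene, about 2056 bases for Sox2 and 30710 for Zbtb20. Which transcripts were present was not measured, so comparisons of level between genes are approximate.

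**Figure D1:**
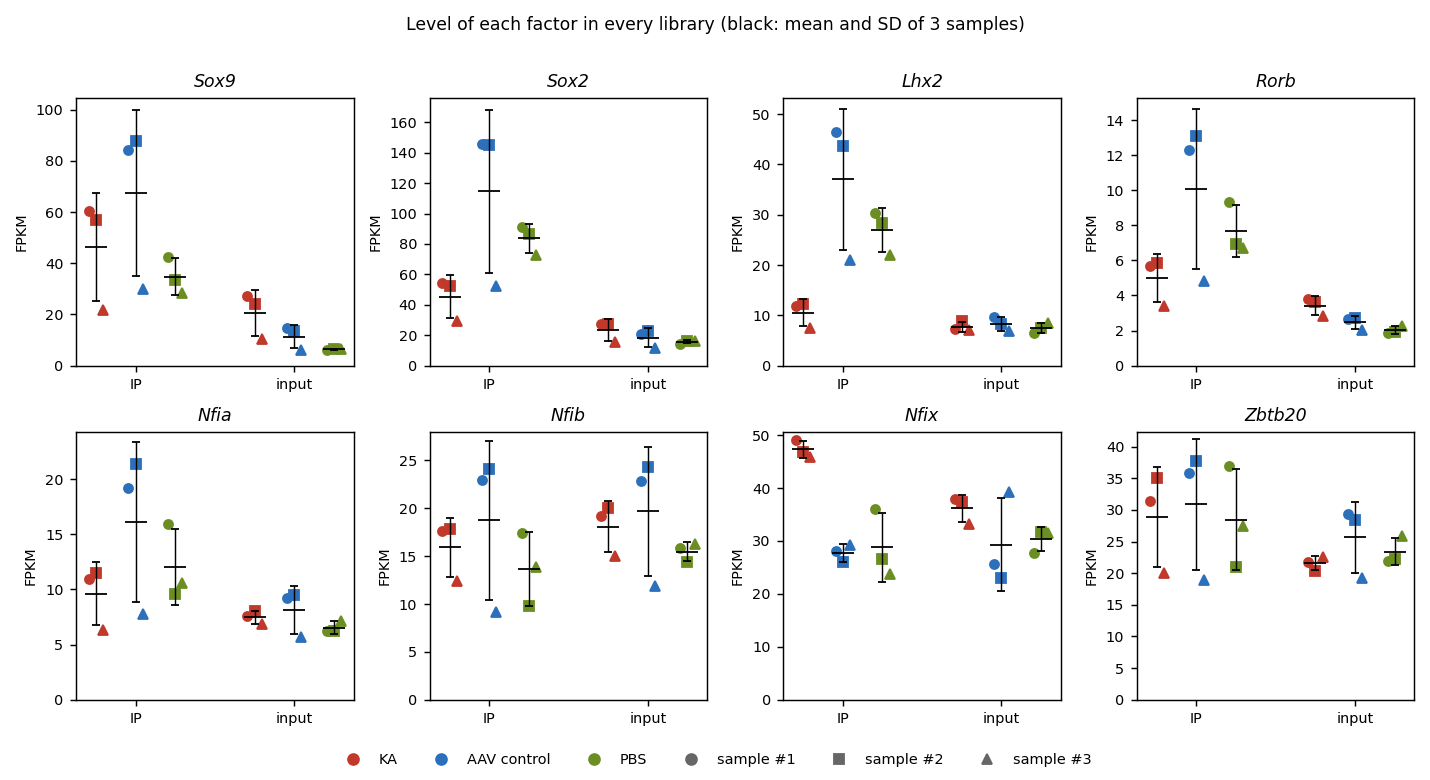
FPKM of each factor (vertical axis) in the KA, AAV control and PBS groups, IP at left and input at right of each panel; symbols are samples #1 to #3 and black marks the mean and SD. Lhx2 in KA IP stayed between 7.43 and 12.3 FPKM, below every control IP sample, and Nfix in KA IP lay between 45.9 and 49.1, above every control IP sample.

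The comparison of KA with AAV control in IP asked how these factors differ in tagged astrocytes of the sclerotic hippocampus. The KA mice also had a second injection and a longer time between AAV and collection. These cannot be told apart from KA itself in this comparison, in IP or in input. Lhx2 and Sox2 fell and Nfix rose, while Rorb, Nfia, Sox9, Nfib and the zinc finger factor Zbtb20 did not pass the test. Of the 8 members, 2 were lower and 1 was higher (adjusted p under 0.05, edgeR quasi-likelihood test with Benjamini-Hochberg adjustment over 9729 genes), against 9.74% of all genes lower and 10.4% higher. The samples of KA and AAV control did not overlap for 2 of the 8 members, against 37.0% of all genes. The median log2 change was -0.58 over the members and -0.02 over all genes tested.

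Lhx2, a LIM-homeodomain factor that patterns the hippocampus and cortex, was measured at 11.8, 12.3 and 7.43 FPKM in KA IP and at 46.4, 43.7 and 21.001 in AAV control IP. The lowest control sample was above the highest KA sample. The log2 fold change was -1.76 (SE 0.28, adjusted p = 0.00574, edgeR). It passed in each of the 6 fits that left out 1 library, with log2 changes between -2.005 and -1.59.

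Sox2, the SOXB1 factor of neural stem cells that adult astrocytes also express, was measured at 54.6, 52.6 and 29.1 FPKM in KA IP and at 146, 145 and 52.7 in AAV control IP. The control sample of run 2 fell within the KA range, so the groups overlapped. The log2 fold change was -1.27 (SE 0.36, adjusted p = 0.0438, edgeR). Sox2 passed without AAV control #3 (adjusted p = 0.00142, edgeR) and in none of the other 5 fits with 1 library left out, where the adjusted p reached 0.129. It did not pass with limma-voom either (log2 -1.20, adjusted p = 0.0546).

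Nfix, an NFI factor that drives progenitors of the developing hippocampus to differentiate, was measured at 49.1, 46.8 and 45.9 FPKM in KA IP and at 28.1, 25.9 and 29.2 in AAV control IP. All KA samples were above all control samples. The log2 fold change was 0.82 (SE 0.18, adjusted p = 0.0174, edgeR). Nfix passed without KA #3 or without AAV control #3, and lost its call without KA #1, KA #2, AAV control #1 or AAV control #2, with adjusted p of up to 0.0802 (edgeR).

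Of the other members, Rorb, an orphan nuclear receptor known from cortical layer neurons, had 5.69, 5.85 and 3.41 FPKM in KA IP and 12.3, 13.1 and 4.81 in AAV control IP, a log2 change of -0.94 (SE 0.33, adjusted p = 0.0841, edgeR). Nfia, the NFI factor that starts gliogenesis, had 10.96, 11.5 and 6.35 against 19.2, 21.3 and 7.81 FPKM, a log2 change of -0.68 (SE 0.34, adjusted p = 0.200). For both genes, samples #1 and #2 of KA were well below those of AAV control, and the control sample of run 2 lay within the KA range. Without AAV control #3 both passed (adjusted p = 0.00216 for Rorb and 0.00919 for Nfia, edgeR). Sox9, the HMG-box factor used as a nuclear marker of adult astrocytes, had 60.3, 56.8 and 21.9 against 84.3, 87.9 and 29.9 FPKM, a log2 change of -0.49 (SE 0.43, adjusted p = 0.475). Nfib (-0.16, SE 0.31) and Zbtb20 (-0.04, SE 0.28) had the smallest differences.

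Samples with the same number in the KA and AAV control groups come from different mice and share a sequencing run. Their residuals correlated, though not always more than those of unlike numbers. The fit was also made with the sample number as a block. With this replicate block, 6 of the 8 members passed in IP, against 34.5% of all genes: Lhx2 (log2 -1.72, adjusted p = 0.000586, edgeR), Sox2 (-1.19, 0.00282), Rorb (-0.87, 0.00883), Nfia (-0.61, 0.0241) and Sox9 (-0.47, 0.0273) were lower and Nfix (0.82, 0.0041) was higher. The sequencing run as a covariate gave the same 6 in the same directions, against 40.2% of all genes. Within run 1 alone, 7 of the 8 passed, against 46% of all genes, Nfib being lower by the fit (log2 -0.35, adjusted p = 0.0159), and Zbtb20 did not pass. Within run 2 there is 1 sample per group and no test. There, KA against AAV control was lower for Lhx2 (log2 ratio of FPKM -1.498), Sox2 (-0.86), Rorb (-0.50), Sox9 (-0.45) and Nfia (-0.30) and higher for Nfix (0.65), the direction of run 1 in all 6. Nfib was lower in run 1 (-0.41) and higher in run 2 (0.43).

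Against PBS, Lhx2, Sox2 and Rorb fell and Nfix rose in KA IP. Both comparisons share the KA libraries. Of the 8 members, 3 were lower and 1 was higher, against 18.9% and 18.2% of the 9847 genes tested. The groups did not overlap for the same 4 members, against 46.0% of all genes. The median log2 change was -0.16 over the members and -0.01 over all genes. In PBS IP, Lhx2 was at 30.4, 28.3 and 22.0 FPKM, above all KA samples (log2 change -1.39, SE 0.23, adjusted p = 0.00125, edgeR). Sox2 was at 91.2, 86.9 and 73.0 FPKM, also above all KA samples (-0.91, SE 0.23, adjusted p = 0.0122). Both kept their call in each of the 6 fits with 1 library left out.

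Rorb in PBS IP was at 9.35, 6.96 and 6.69 FPKM and did not overlap with KA (log2 change -0.64, SE 0.22, adjusted p = 0.0387, edgeR). Nfix was at 36.1, 26.6 and 23.7 FPKM, below all KA samples (0.71, SE 0.23, adjusted p = 0.0319). Rorb passed only without PBS #3 and Nfix only without PBS #1 among the 6 fits with 1 library left out, and otherwise reached adjusted p of 0.128 and 0.0791 (edgeR). Without the filter on low levels, Rorb did not pass (-0.46, adjusted p = 0.190, edgeR). Sox9 was at 42.6, 33.3 and 28.5 FPKM in PBS IP and overlapped with KA. Its log2 change was 0.37 (SE 0.31, adjusted p = 0.377), and 0.69 (adjusted p = 0.0418) without KA #3, the opposite sign to the value against AAV control. Nfia (-0.34, SE 0.24), Nfib (0.22, SE 0.22) and Zbtb20 (0.01, SE 0.29) did not pass.

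**Figure D2:**
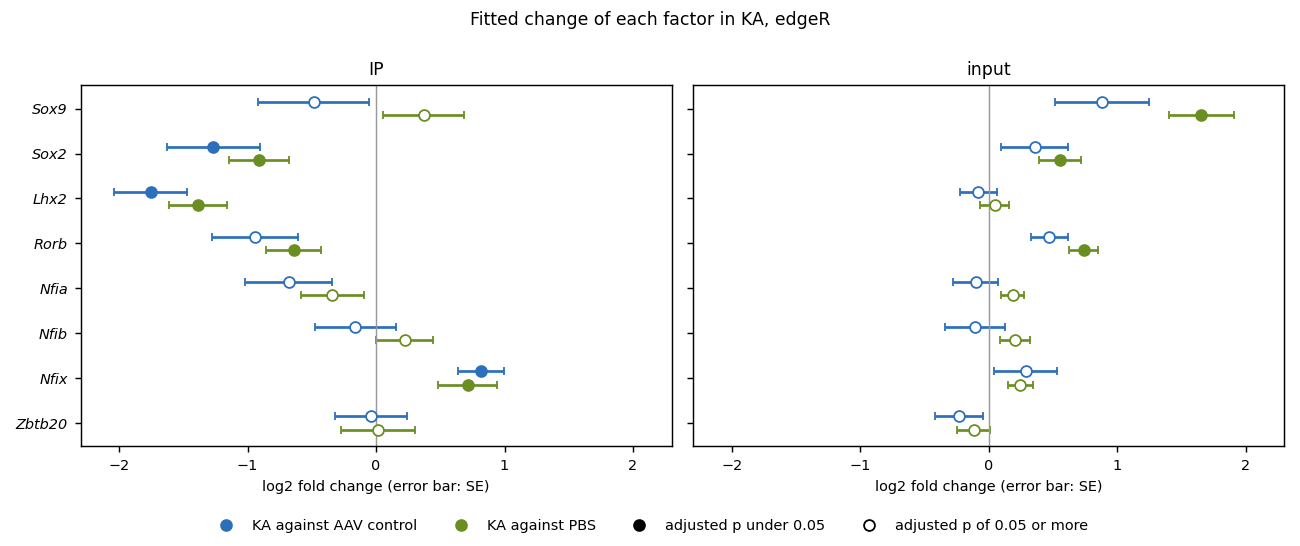
Fitted log2 fold change with SE (horizontal axis) of each factor in KA against AAV control and against PBS, in IP and in input; filled points have an adjusted p under 0.05 (edgeR). In IP, Lhx2 (-1.76 and -1.39), Sox2 (-1.27 and -0.91) and Nfix (0.82 and 0.71) are filled in both comparisons, while in input the filled points are Sox9, Rorb and Sox2 against PBS, all to the right of 0.

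Other measures of the IP moved with these changes. Of the 10 astrocyte markers, 5 were lower and 1 (the water channel Aqp4) was higher in KA IP than in AAV control IP, with a median log2 change of -1.14. Their summed level was 3286 to 4074 FPKM in KA IP, 6762 to 9920 in AAV control IP and 6873 to 12006 in PBS IP, and no marker was at 0. The 5 oligodendrocyte markers summed to 1177 to 2265 FPKM in KA IP, 199 to 876 in AAV control IP and 222 to 471 in PBS IP, 2 of the 5 being higher against AAV control and 5 of the 5 against PBS. The 4 dentate granule cell markers summed to 24.2 to 51.5, 13.5 to 17.3 and 11.6 to 20.5 FPKM in the same order, and the 5 microglia markers to 12.4 to 17.0, 5.56 to 8.85 and 5.77 to 9.42. Of the 3 granule cell markers tested, 2 were higher in both comparisons, and of the 2 microglia markers tested, 1 was higher in both and 1 was lower against PBS. The 5 neuron markers summed to 154 to 225, 84.5 to 118 and 86.1 to 149.5 FPKM. Of the 2 endothelial markers tested, 1 was lower in each comparison. The part of these cell type markers in the changes of the factors was not tested. In such bulk RNA, fewer cells of a type and less RNA per cell cannot be told apart. The tagged gene Rpl10a was at 196 to 343 FPKM in KA IP and 239 to 320 in AAV control IP and did not pass (log2 -0.04, adjusted p = 0.945, edgeR).

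Set against the astrocyte markers of the same library, the factors separated. The log2 of each factor's FPKM over the geometric mean of the 10 markers was compared in IP, where 3 samples against 3 cannot give an exact permutation p below 0.1. The markers themselves had a median log2 change of -1.14 against AAV control and -0.90 against PBS. A gene whose level did not change therefore also comes out higher on this scale. The share of all genes without overlap was not computed for it. Lhx2 was at -3.83 ± 0.30 (SD, n = 3) in KA and -2.87 ± 0.45 in AAV control, a difference of -0.96 with no overlap (exact permutation p = 0.1). Lhx2 lay below the markers in all groups, and in KA it was further below them than in AAV control. The same held against PBS (difference -0.66, no overlap). Nfix was at -1.62 ± 0.07 in KA and -3.20 ± 0.25 in AAV control, a difference of 1.58 with no overlap, and 1.46 against PBS.

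Nfib (0.68) and Zbtb20 (0.74) were also higher relative to the markers in KA than in AAV control, with no overlap, and likewise against PBS (0.96 and 0.74). With 7 instead of 10 markers, Nfib (0.57) and Zbtb20 (0.63) overlapped between KA and AAV control, and Zbtb20 (0.63) also between KA and PBS. Neither gene passed in the level itself. For Sox2 (-0.44), Rorb (-0.11), Nfia (0.14) and Sox9 (0.29) the KA and AAV control samples overlapped, and against PBS these 4 genes overlapped as well.

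Ratios between members of 1 library do not depend on its total, and these were added after the values were seen. In AAV control IP, Sox9 was at 0.578, 0.606 and 0.567 times Sox2, and in PBS IP at 0.467, 0.384 and 0.391 times. In KA IP it was at 1.10, 1.08 and 0.752 times, above all control samples in both comparisons. Such a lack of overlap was common: it held for 20 of the 28 pairs of members between KA and AAV control IP, and for 23 of 28 between KA and PBS IP. The pairs share members, and the share over all pairs of genes was not computed, so these counts are descriptions. In input the ratio of Sox9 to Sox2 was also above PBS in all KA samples, and it overlapped with AAV control. The ratio of Nfix to Lhx2 was 4.17, 3.81 and 6.17 in KA IP, 0.606, 0.593 and 1.39 in AAV control IP and 1.19, 0.938 and 1.08 in PBS IP. The FPKM of Nfix was thus several times that of Lhx2 in KA, and 0.593 to 1.39 times that of Lhx2 in the controls. In input that ratio overlapped between KA and both control groups.

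Within the NFI family, which binds DNA as dimers of its members, the shares of Nfix and Nfia in IP separated KA from both control groups. Each gave an exact permutation p of 0.1, the smallest possible with 3 samples against 3. The share of Nfib overlapped in both comparisons, and that of Nfic overlapped with AAV control and was lower than in PBS. How often other gene families separate so was not computed. Nfix made up 54.0%, 52.4% and 63.4% of the summed FPKM of Nfia, Nfib, Nfic and Nfix in KA IP. The share was 34.4%, 30.7% and 51.7% in AAV control IP and 43.3%, 47.8% and 40.5% in PBS IP, all below KA. Nfia made up 8.77% to 12.9% in KA IP, 13.8% to 25.2% in AAV control IP and 17.2% to 19.1% in PBS IP. These shares were computed after the values were seen. In input, the share of Nfix was 49.8% to 50.5% in KA, 35.2% to 59.7% in AAV control and 48.1% to 51.5% in PBS, and overlapped. The sum of the 4 genes was 72.4 to 91.0 FPKM in KA IP and 56.6 to 84.6 in AAV control IP.

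**Figure D3:**
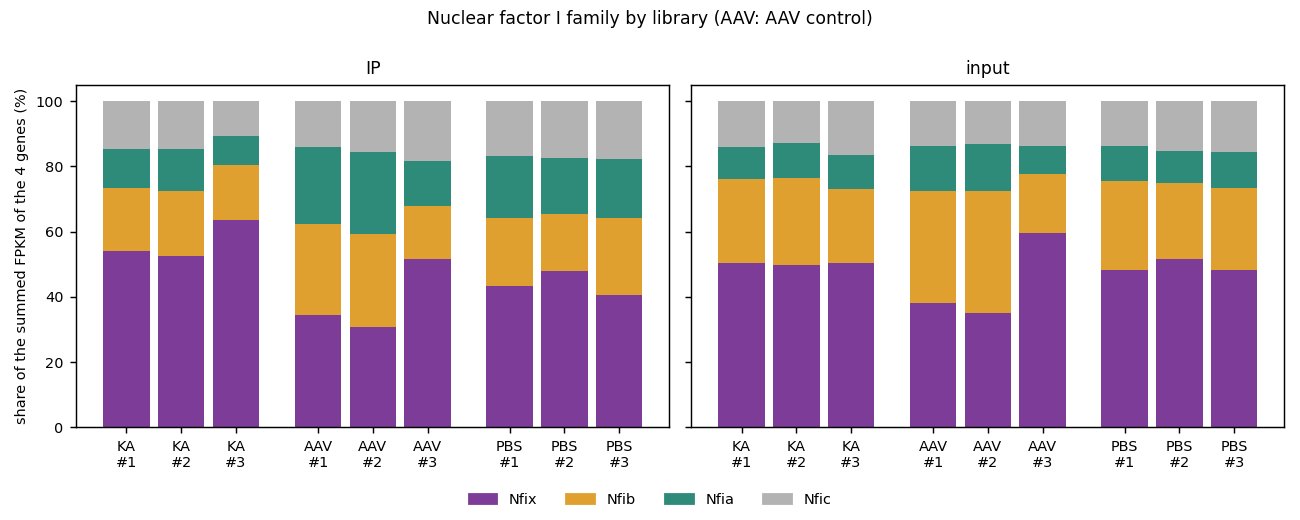
Share (vertical axis, %) of Nfix, Nfib, Nfia and Nfic in their summed FPKM in each library, IP at left and input at right. Nfix holds 52.4% to 63.4% in KA IP and at most 51.7% in the other IP libraries, while in input the groups overlap.

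The IP to input ratio sets a factor's FPKM in the pull-down against its FPKM in the whole hippocampus, each scaled to its library total. It does not give the amount of RNA pulled down. Markers of oligodendrocytes were also higher in IP than in input in KA (5 of 5, median log2 1.35), but in 0 of 5 in AAV control and in 0 of 5 in PBS, where 2 were lower, and their part in the KA ratios of the factors was not tested. In AAV control, 5 of the 8 members were higher in IP than in input, against 19.4% of 9961 genes: Sox2 (log2 2.77, SE 0.40), Sox9 (2.71, SE 0.45), Lhx2 (2.295, SE 0.28), Rorb (2.15, SE 0.33) and Nfia (1.12, SE 0.34), with adjusted p between 0.000583 and 0.0356 (edgeR). Nfia passed only without AAV control IP #3 among the 6 fits with 1 library left out, and the other 4 genes passed in all 6. In PBS the same 5 passed, against 28.6% of 10401 genes, with log2 values of 2.57 for Sox2, 2.59 for Sox9, 2.02 for Lhx2, 2.07 for Rorb and 1.02 for Nfia. All 5 passed without each library in PBS. Nfib, Nfix and Zbtb20 did not pass in either group, although Zbtb20 passed without AAV control IP #3 (adjusted p = 0.0449) or without PBS IP #3 (0.0452). With the homogenate as a block, Zbtb20 also passed in AAV control (log2 0.38, adjusted p = 0.0321), where 61.3% of all genes did.

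In KA, 7 of the 8 members were higher in IP than in input, against 19.1% of 10098 genes. Sox9 (log2 1.37, SE 0.39) and Sox2 (1.17, SE 0.24) exceeded a log2 of 1, and Rorb (0.75), Lhx2 (0.64), Zbtb20 (0.62), Nfix (0.61) and Nfia (0.56) did not. Nfib did not pass (0.03). Among the fits with 1 library left out, Sox2, Nfix and Rorb passed in all 6. Lhx2 passed in 3 of 6 (lost without KA IP #1, KA IP #2 or KA input #1, adjusted p up to 0.090), Sox9 in 2 (without KA IP #3 or KA input #1), Zbtb20 in 2 (without KA IP #3 or KA input #3) and Nfia in 1 (without KA IP #3).

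By homogenate, the FPKM of Sox9 in IP was 2.20, 2.34 and 2.08 times that in input in KA, 5.80, 6.58 and 4.93 times in AAV control and 6.79, 5.10 and 4.41 times in PBS. Sox2 was at 1.99, 1.91 and 1.88 times in KA, 6.95, 6.36 and 4.60 in AAV control and 6.29, 5.34 and 4.48 in PBS. For both genes every KA homogenate was below every control homogenate. Between KA and AAV control, 5 of 8 members did not overlap, against 48.7% of all genes, and between KA and PBS 5 of 8, against 46.9%. Lhx2 was at 1.61, 1.38 and 1.05 times in KA, 4.79, 5.32 and 3.03 in AAV control and 4.68, 3.75 and 2.62 in PBS. Rorb was at 1.498, 1.61 and 1.21 times in KA, 4.58, 4.82 and 2.35 in AAV control and 4.95, 3.57 and 2.96 in PBS. For these 2 factors KA and the controls did not overlap either. Nfib was between 0.678 and 1.10 times in all 9 homogenates, and the ratio of Nfix was higher in KA (1.25 to 1.38) than in AAV control (0.744 to 1.13) and overlapped with PBS (0.752 to 1.30).

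**Figure D4:**
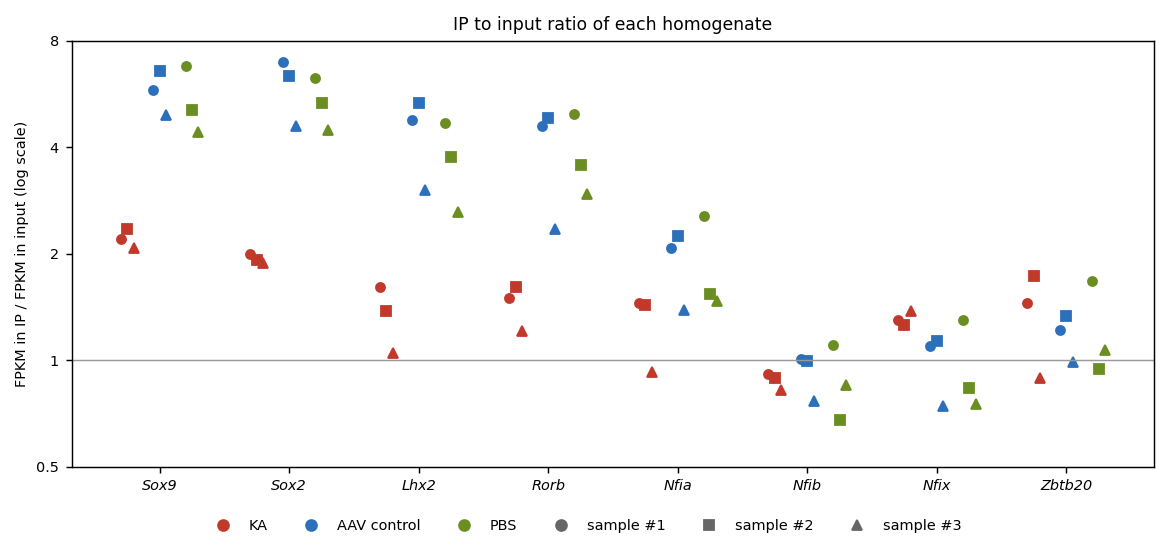
FPKM in IP divided by FPKM in input of the same homogenate (vertical axis, log scale) for each factor in the KA, AAV control and PBS groups. For Sox9, Sox2, Lhx2 and Rorb all KA homogenates (1.05 to 2.34 times) lie below the control homogenates of the same gene, while Nfib stays near 1 in all groups.

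The interaction of group and kind of library tested whether these ratios differed. Between KA and AAV control, Lhx2 (log2 difference -1.65, SE 0.33, adjusted p = 0.00624, edgeR) and Rorb (-1.39, SE 0.39, adjusted p = 0.035) passed, 2 of 8 members against 5.98% of the 9180 genes tested. Sox2 (-1.60, SE 0.49, adjusted p = 0.0526) and Sox9 (-1.34, SE 0.64, adjusted p = 0.205) had differences of like size and did not pass, nor did Nfia (-0.55, SE 0.41). With the homogenate as a replicate block, 5 passed, against 35.8% of all genes: Sox9 (-1.31, adjusted p = 2.48e-05), Sox2 (-1.54, 2.41e-05), Lhx2 (-1.61, 0.000123) and Rorb (-1.32, 0.00103) lower and Nfix (0.50, 0.0325) higher. Lhx2 passed without each of the 6 homogenates, and Rorb passed only without AAV control #3 (adjusted p up to 0.137 otherwise, edgeR). Sox2 also passed without AAV control #3 (adjusted p = 0.00408).

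Between KA and PBS, 3 of 8 passed, against 14.7% of 9305 genes: Lhx2 (-1.45, SE 0.27, adjusted p = 0.00225, edgeR), Rorb (-1.39, SE 0.26, 0.00244) and Sox2 (-1.48, SE 0.31, 0.00469), each also in all 6 fits with 1 homogenate left out. Sox9 was at -1.29 (SE 0.47, adjusted p = 0.0554), and passed without KA #3 (adjusted p = 0.00609), and Nfia at -0.53 (SE 0.28, adjusted p = 0.183). With the replicate block Sox9 passed as well (-1.27, adjusted p = 0.000215), where 37.4% of all genes did. The ratio of the astrocyte markers moved the same way: 8 of 10 fell against AAV control (median log2 -1.57) and 8 of 10 against PBS (median -1.47), beside medians of -0.95 and -0.91 over the 8 members and -0.02 and -0.07 over all genes tested. The part of this in the values of the factors was not tested.

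In input, the RNA of the whole hippocampus, the direction was different. Against PBS, Sox9, Rorb and Sox2 rose in KA, 3 of 8 members against 15.5% of 10849 genes, and no member fell. For 3 of 8 (Sox9, Rorb and Nfix) all KA samples were above all PBS samples, against 18.4% of all genes. Sox9 was at 27.4, 24.2 and 10.5 FPKM in KA input and at 6.28, 6.54 and 6.47 in PBS input, with no overlap (log2 change 1.65, SE 0.25, adjusted p = 0.00106, edgeR). Rorb was at 3.80, 3.64 and 2.82 against 1.89, 1.95 and 2.26 FPKM, with no overlap (0.74, SE 0.11, adjusted p = 0.00108). Both passed without each library. Sox2 was at 27.4, 27.5 and 15.4 against 14.5, 16.3 and 16.3 FPKM and overlapped (0.55, SE 0.16, adjusted p = 0.0289). It passed only without KA #3 among the 6 fits with 1 library left out, and otherwise reached an adjusted p of 0.115 (edgeR). Without KA #3, Nfib (adjusted p = 0.0287) and Nfix (0.0312) passed as well.

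Against AAV control, no member passed in input, where 4.49% of 10809 genes did, and 1939 genes had an unadjusted p under 0.05. DESeq2 called no member either. Sox9 in AAV control input was at 14.5, 13.4 and 6.06 FPKM, each below the KA sample of the same number (log2 change 0.88, SE 0.37, adjusted p = 0.258, edgeR). Rorb was at 2.68, 2.71 and 2.05 FPKM, below all KA samples (0.47, SE 0.14, adjusted p = 0.126). It was the 1 member without overlap, against 22.6% of all genes. Sox2 was at 20.999, 22.8 and 11.4 FPKM (0.36, SE 0.26, adjusted p = 0.550). With the replicate block, Sox9 (0.86, adjusted p = 0.00232) and Rorb (0.47, adjusted p = 0.0479) passed, against 10.2% of all genes. With the sequencing run as a covariate Sox2 passed too (0.36, adjusted p = 0.0389), against 16% of all genes. Within run 1 alone 7 members passed, against 41.6% of all genes, Sox9, Sox2, Nfix and Rorb being higher and Nfia, Nfib and Zbtb20 lower. Without AAV control #3, Nfix passed (log2 0.63, adjusted p = 0.00488).

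Lhx2 passed in neither input comparison and was at 7.29, 8.91 and 7.10 FPKM in KA input, 9.69, 8.23 and 6.93 in AAV control input and 6.50, 7.55 and 8.39 in PBS input, overlapping in all. Nfia was between 5.65 and 9.50 FPKM in all input libraries, Nfib between 11.9 and 24.3, Zbtb20 between 19.3 and 29.4 and Nfix between 23.0 and 39.3. Of the astrocyte markers in input, 4 of 10 were higher in KA against AAV control and 6 of 10 against PBS, with summed levels of 1090 to 1144 FPKM in KA, 568 to 979 in AAV control and 840 to 995 in PBS. The 5 microglia markers summed to 145 to 207 FPKM in KA input, 28.3 to 39.9 in AAV control and 30.1 to 33.0 in PBS. Sums of the 5 CA pyramidal cell markers were 84.1 to 119, 160 to 274 and 226 to 258 FPKM in the same order. Those of the 5 neuron markers were 501 to 564, 684 to 829 and 750 to 813. Lower against PBS were 3 of 5 CA pyramidal cell, 3 of 5 neuron and 3 of 4 interneuron markers. Against AAV control 1, 0 and 1 were lower, and 0 were higher in either comparison. Choroid plexus markers (3 genes) summed to 2484 to 4472 FPKM in KA input, 15.5 to 2976 in AAV control input and 18.2 to 289 in PBS input. The part of these in the input values was not tested.

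The 2 control groups were also compared. No member passed between PBS and AAV control in IP or in input by edgeR, and no gene did (0.0% of 10667 and 0.0% of 10924), with 1153 and 901 genes at an unadjusted p under 0.05. DESeq2 called 16 genes in IP and 30 in input, none of them a member. Member medians were -0.36 in IP and -0.22 in input, against 0.03 and -0.0031 over all genes. All 8 members overlapped in both, where 13.4% and 10.9% of genes did not. Sox9 was lower in PBS than in AAV control samples #1 and #2 in IP, and passed there without AAV control #3 (log2 -1.20, adjusted p = 0.0229, edgeR), where 10.2% of all genes did. Without AAV control #3 in input, 6 members passed, against 36.5% of all genes, Sox9 (-1.04, adjusted p = 7.79e-06), Nfib (-0.53), Nfia (-0.44), Sox2 (-0.41) and Rorb (-0.33) being lower and Nfix (0.40) higher in PBS.

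Paralogs of the members were followed for comparison. Of the paralogs, 4 passed the level filter in KA against AAV control in IP and 2 of these fell. Rora, the closest relative of Rorb, was at 4.64, 4.30 and 2.92 FPKM in KA IP and 12.8, 11.7 and 6.92 in AAV control IP (log2 change -1.35, SE 0.23, adjusted p = 0.00709, edgeR). Sox8, the SOXE relative of Sox9, was at 7.26, 5.70 and 2.63 against 10.8, 11.5 and 13.6 FPKM (-1.19, SE 0.31, adjusted p = 0.0338). Neither gene overlapped between the groups. Sox10, the oligodendrocyte SOXE factor, had 9.98, 9.44 and 7.06 against 3.64, 4.22 and 8.52 FPKM (0.69, adjusted p = 0.216), and Nfic, the fourth NFI gene, was at 0.01 (SE 0.19). Sox1, Sox3 and Lhx9 had at least 1 library at or under 1 FPKM and were not tested. Against PBS, Rora (-1.04) and Sox8 (-1.12) fell as well.

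Of 29 other transcription factors of astrocytes and their progenitors, 25 were tested in KA against AAV control in IP, and 11 were lower and 1 was higher (median -0.69). Hes5, the Notch effector of neural progenitors, had the lowest p: 3.29, 2.04 and 2.08 FPKM in KA IP against 32.2, 24.9 and 21.1 (log2 change -3.33, SE 0.25, adjusted p = 0.000348, edgeR). The others named by lowest p were Klf15 (-1.58), a glucocorticoid-induced Krüppel-like factor, Nr2e1 (-0.99), the stem cell nuclear receptor TLX, and Emx2 (-1.70), a homeobox factor of hippocampal patterning. Stat3, the cytokine signal transducer that drives reactive astrogliosis, was the factor that rose (0.57, SE 0.16, adjusted p = 0.0418). Against PBS, 12 of 25 were lower and 3 higher. In input the balance was other: 3 of 20 were higher and 0 lower against AAV control, and 8 higher and 1 lower against PBS.

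Genes described as targets of SOX9 or NFI proteins moved in both directions in IP. Of 8, 7 were tested against AAV control, of which 3 were lower and 1 was higher. Gfap, the intermediate filament gene with NFI sites, was at 3377 to 4051 FPKM in KA IP, 566 to 843 in AAV control IP and 655 to 1225 in PBS IP (log2 change 2.49, SE 0.33, adjusted p = 0.00265, edgeR). The glutamate transporter genes Slc1a2 (-1.42, adjusted p = 0.0164) and Slc1a3 (-1.19, adjusted p = 0.0122) and Mmd2 (-1.21, adjusted p = 0.0158) fell. Aldh1l1 (-0.47, adjusted p = 0.0859), Zcchc24 (-0.71, adjusted p = 0.234) and Fabp7 (-0.55, adjusted p = 0.154) did not pass, and Apcdd1 was at 0.829 to 1.04 FPKM in KA IP and was not tested. Against PBS, Gfap (1.94) was again higher and Slc1a2 (-1.65), Slc1a3 (-1.05) and Mmd2 (-1.38) lower. In input, Gfap rose against both groups (3.42 and 3.12), and so did Fabp7 (1.06 and 1.80) and Aldh1l1 (0.84 and 0.78).

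Each profile was compared with 9001 genes over the 18 libraries, as the root mean square difference of centred log2 values. The nearest gene was Fgfr3, a growth factor receptor of astrocytes and one of the 10 markers, for Sox2 (0.15 log2 units), Akt2 for Lhx2 (0.14), Qk for Rorb (0.14), Rhobtb3 for Nfia (0.12), Ube2h for Nfib (0.12), Bnip3l for Nfix (0.14) and Dennd5a for Zbtb20 (0.11). The nearest to Sox9 was Scd2, at 0.32. These differences are not scaled to how much a gene itself varied. The root mean square of its own centred values was 1.19 for Sox9, 1.11 for Sox2, 0.32 for Nfix and 0.32 for Zbtb20. The differences therefore do not rank the members by how well they are matched. The second nearest were Paqr8 for Sox2, Elovl2 for Lhx2, Mmut for Rorb, Acbd5 for Nfia, Ccdc127 for Nfib, Slc25a4 for Nfix, Zfp106 for Zbtb20 and 2810459M11Rik for Sox9. Among the members themselves, the nearest to Nfia was Zbtb20 (0.27), to Nfib also Zbtb20 (0.29), to Rorb Nfia (0.32), to Lhx2 Rorb (0.34), to Sox2 Lhx2 (0.40) and to Sox9 Sox2 (0.47). Nfix was farthest from the rest, 0.48 from Zbtb20. The points share libraries and depth, and the values are descriptions.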

How the data were processed

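RNA of the right hippocampus was measured in 3 groups of 3 samples, as IP and input, in 18 libraries. The authors aligned the reads to mm10 (STAR, featureCounts and edgeR are named in their processing notes) and deposited for each library whole-number counts and FPKM values per gene symbol. The deposited counts are not normalized, and the deposited FPKM values are counts per library total and fixed gene length. Handling of reads with several matches is not given in the sources used here. Library totals were 7991681 to 16032180 counts. The precision of a comparison is limited by 3 samples a group.

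Group differences were fitted by edgeR 4.0.16 under R 4.3.3, by its quasi-likelihood test with TMM factors and Benjamini-Hochberg adjustment over all genes tested. As in the study's methods, a gene was tested where each library of the comparison exceeded 1 FPKM. Passed means an adjusted p under 0.05. Single values were compared with two-sided exact permutation tests of log2(FPKM + 1) in scipy. The fits were tested on simulated data. Alternatives were RLE factors, DESeq2 1.42.0, limma-voom (limma 3.58.1), no FPKM filter, a replicate block, the sequencing run, each library left out, a pseudocount of 0.1, TMM CPM for ratios and 7 instead of 10 astrocyte markers.

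Pairing was checked by the correlation of residuals of same-numbered libraries over 9001 genes. These were 0.348, 0.529 and 0.551 between KA IP and AAV control IP and 0.352, 0.444 and 0.550 between the inputs. The highest correlation between unlike numbers was 0.403 in IP and 0.484 in input. It exceeded the value of #1 in IP and those of #1 and #2 in input, so the number is not a clear pairing of these 2 groups. IP and input of a number share a homogenate. KA and PBS samples, and PBS and AAV control samples, share only a number. No pair of libraries in a group agreed within sampling noise.

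Named genes are the 8 members, their paralogs, the targets, the other factors with the lowest p (up to 4 in each direction), the 2 nearest profiles of each member, and Rpl10a. The members and lists were chosen with earlier results of these data known. Ratios between members and NFI shares were added after the values were seen. Promoter sequences came from RefSeq (GRCm38.p6). 1 paralog is not reported here.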

Additional observations from a re-analysis of the deposited data

Results flagged for a closer look

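The IP to input ratio of 3 factors differed between groups by the interaction test of edgeR without a block for the homogenate. For Lhx2, the log2 ratio in KA was lower than in AAV control by a difference of -1.65 and lower than in PBS by a difference of -1.45. For Rorb, both differences were -1.39. For Sox2, the difference from PBS was -1.48. In all of these, the ratio of each KA homogenate was below that of each control homogenate (3 of 3). The comparisons share the KA homogenates. IP and input of a number share a homogenate, which the fit without a block did not use. With the homogenate as a block, Sox9 passed in both comparisons as well, and Sox2 and Nfix (higher in KA) against AAV control. In those fits 35.8% of all genes passed against AAV control and 37.4% against PBS. The astrocyte marker list moved the same way, and its part in these values was not tested.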

How the results depend on the processing

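The number of members that passed is given with the share of all genes that passed in the same fit. For KA against AAV control in IP it was 3 (20.1%). It was 6 with a replicate block (34.5%), 6 with the run as covariate (40.2%) and 7 in run 1 alone (46%), while limma-voom gave 2 (19.9%, Sox2 lost). Against PBS in IP it was 4 (37%), and 3 without the filter (18.8%, Rorb lost). In KA against AAV control input it was 0 (4.49%), and 1 without the FPKM filter (5.65%, Sox9). There it was 2 with the replicate block (10.2%), 3 with the run as covariate (16%) and 7 in run 1 (41.6%). For the ratio of KA against AAV control it was 2 (13.2%), 1 with limma-voom (12.8%, Rorb lost) and 4 without the filter (5.16%). This ratio gave 5 with the replicate block (35.8%), 4 with the run (29.6%) and 6 in run 1 (34.4%). Between PBS and AAV control in input it was 1 without the filter (0.756%, Sox9). Relative to astrocyte markers, 8 of 24 member values did not overlap between groups with 10 markers and 5 of 24 with 7. The share over all genes was not computed for this measure. Leaving out 1 library gave 1 to 5 in KA against AAV control IP (8.59% to 33.8%) and 2 to 3 against PBS IP (25% to 36.7%). In input it gave 0 to 1 against AAV control (1.23% to 23.8%) and 2 to 5 against PBS (15.6% to 43.9%). PBS against AAV control gave 0 to 1 in IP (0% to 10.2%) and 0 to 6 in input (0% to 36.5%). For IP against input it gave 3 to 7 in KA (22.5% to 39.3%), 4 to 6 in AAV control (28.3% to 42.1%) and 5 to 6 in PBS (46.5% to 58.2%). With 1 homogenate left out, the ratios gave 1 to 3 for KA against AAV control (5.48% to 22.1%). They gave 3 to 4 for KA against PBS (13.9% to 22.1%) and 0 to 0 for PBS against AAV control (0%). The causes were not tested. Same-numbered samples share no sequencing run in comparisons with PBS. There the replicate block gave 3 in KA against PBS IP (31.3%, Nfix lost) and 3 in input (28.4%). It gave 0 in PBS against AAV control, in IP (0%) and in input (0.00915%).

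Signs changed for values near 0. In KA against AAV control IP, Zbtb20 was at 0.034 without the filter and between -0.26 and 0.12 with 1 library left out, and Nfib between -0.46 and 0.030. Against PBS, Zbtb20 was between -0.12 and 0.23 with 1 library left out. With 7 markers, Rorb was at -0.030 against PBS and Zbtb20 at -0.0087 between PBS and AAV control. With TMM CPM, the IP to input ratio was 1.03 for Nfib in KA and in AAV control, and 1.11 and 1.07 for Nfix in AAV control and PBS.

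Over all genes, calls without the filter against those with it were 3933 and 1960, 7028 and 3647 in IP against AAV control and PBS, 1770 and 485, 4929 and 3009 in input, 5753 and 3477, 6322 and 3959, 8789 and 5853 for IP against input, and 261, 234 and 41 against 0 between PBS and AAV control. The replicate block gave 3356 in IP, 1101 in input (731 higher, 370 lower, beside 383 and 102), 3284 against 1208 for the ratio, and 5336 and 6102 for IP against input in KA and AAV control. The run as covariate gave 3914, 1731 (1036 and 695) and 2716, and run 1 alone 4823, 4781 (2382 and 2399) and 3396. DESeq2 gave 878 in input (587 and 291).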
